A study of Mus musculus with 11 samples.

Results

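The cytochrome P450 genes outside family 1 were followed in colonic RNA of germ-free mice and of mice given a human gut microbiota. Members were the genes of the count table whose symbol names a P450 family other than family 1 and the sterol demethylase family, and that had at least 10 reads in at least 5 of the 11 mice. Of 112 P450 genes matched by name among 43346 genes in the table, 56 met this read floor. They comprised 5 annotated pseudogenes, 1 antisense gene and 50 others. All 56 also passed the low-expression filter of the comparison, among 19863 tested genes.

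Whole colonic tissue of male Swiss Webster mice was sequenced at 8 to 10 weeks of age. The 5 germ-free mice had no microbiota, and the 6 humanized mice were raised germ-free and gavaged at 4 to 5 weeks with 300 μL of a stool suspension from 1 healthy donor. The labels give no genetic change for either group, and the humanized group stands for the microbiota of 1 donor only. Libraries held 49097005 to 64148538 counted reads per germ-free mouse and 39125290 to 54219854 per humanized mouse. Levels are given as RPKM (reads scaled to the length of the gene and to the size of the normalised library), as mean ± SD. The LFC is the log2-fold change of humanized over germ-free mice with its standard error (SE), and a gene was called at an FDR below 0.01 in edgeR's exact test, with p-values adjusted over all 19863 genes.

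Cytochrome P450 enzymes are heme-containing monooxygenases that insert 1 atom of oxygen into a substrate. Families 2 and 3 include most of the enzymes that oxidize drugs and other foreign compounds, family 4 hydroxylates fatty acids and eicosanoids, and higher-numbered families act mainly on sterols, bile acids, vitamin D and retinoic acid. Enzymes in the endoplasmic reticulum receive electrons from the reductase Por, and those in mitochondria from ferredoxin and its reductase. In the gut the epithelium is the main site of drug-oxidizing P450 enzymes, and several subfamilies are encoded by runs of neighbouring, closely similar genes.

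Of the 56 members, 11 were upregulated and 8 were downregulated in humanized colon. This is 33.9% of members, beside 19.3% of all tested genes. The called members Cyp3a59, Cyp2b10 and Cyp4x1os reached 10 reads in at most 2 mice of the group where they were low, so they met the read floor through the group where they were high, and their calls are a description. Of the other 53 members 16 were called, 10 higher and 6 lower, or 30.2%. In the upward direction the share of all tested genes was 9.20%, and in the downward direction it was 10.1%. For 16 members, 8 in each direction, no RPKM of one group reached into the range of the other, these 3 included, while this was so for 18.4% of all tested genes. The median LFC of members was −0.042, beside 0.0084 over all tested genes, both after TMM normalisation. Under total-count normalisation 8 members rose and 13 fell, and when libraries were scaled to epithelial marker genes 9 rose and 11 fell, beside 22.1% and 14.1% of all tested genes called. Of all called genes, 47.8% were higher with TMM, 17.6% with total counts and 22.1% with the epithelial scaling. With edgeR's quasi-likelihood test in place of the exact test, 15 members were called, and 13.6% of all tested genes. The 4 members it no longer called were Cyp2c65, Cyp2c66, Cyp2d34 and Cyp2b10. DESeq2 called 20 members and 22.0% of all tested genes. At an FDR below 0.05 there were 26 called members, beside 28.6% of all tested genes. With an FDR below 0.01 and an absolute LFC above 1 there were 9, beside 8.45%. Both counts include Cyp3a59, Cyp2b10 and Cyp4x1os, which met the read floor through the group where they were high.

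Upregulated members were Cyp2c55, Cyp2c65, Cyp2c66, Cyp2d22, Cyp2d34, Cyp2j6, Cyp3a25, Cyp3a44, Cyp3a59, Cyp4f16 and Cyp4f37, and downregulated members were Cyp2b10, Cyp2c40, Cyp2c68, Cyp2d40, Cyp4b1, Cyp4x1os, Cyp7b1 and Cyp27a1. By role, 9 of 32 drug and xenobiotic members rose and 4 fell. Of 17 fatty acid hydroxylase members 2 rose and 2 fell, and of 3 bile acid and oxysterol members 2 fell. Roles were set by subfamily name. The fatty acid hydroxylase members that fell were Cyp4b1 and the antisense gene Cyp4x1os, and this role also counts the pseudogenes Cyp4b1-ps1, Cyp4b1-ps2 and Cyp4f41-ps. The share called was 40.6% of drug and xenobiotic members and 23.5% of fatty acid hydroxylase members, the latter near the 19.3% of all tested genes. The first share counts Cyp3a59 and Cyp2b10 and the second Cyp4x1os, which met the read floor through the group where they were high. No call was made for the 2 vitamin D members, the 1 retinoic acid member or the 1 orphan member.

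**Figure D1:**
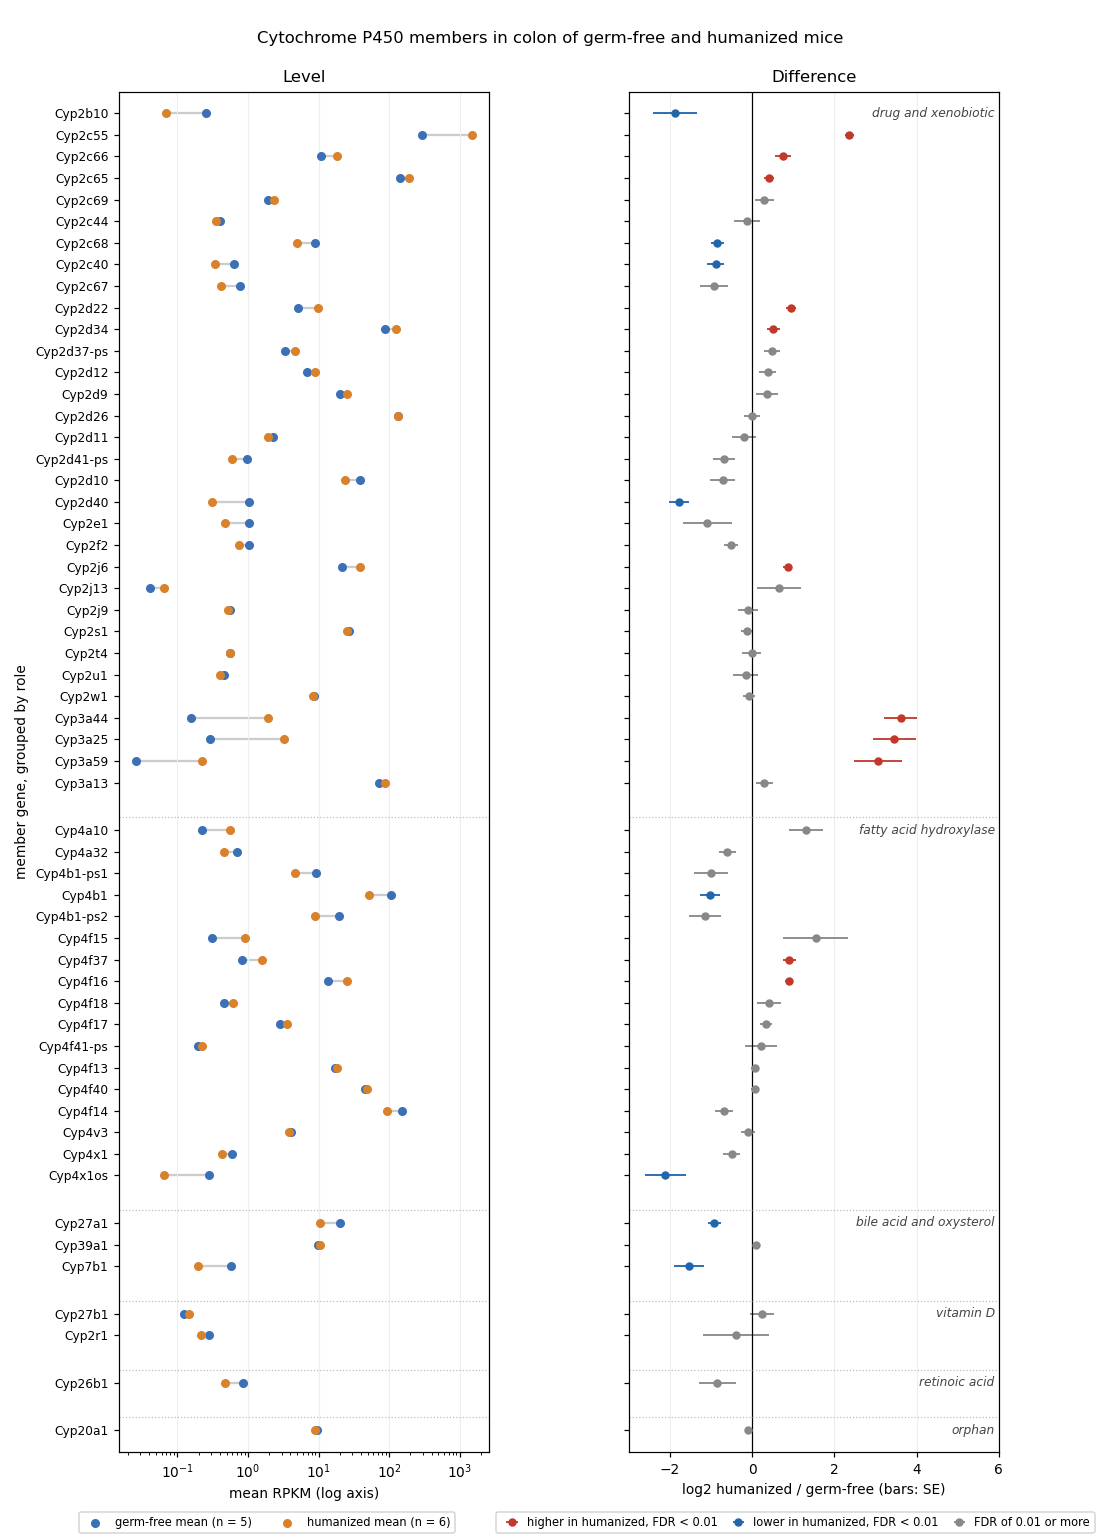
Mean level (left, RPKM on a log axis, 5 germ-free and 6 humanized mice) and LFC with SE (right) of the 56 P450 members, grouped by role and subfamily. Cyp2c55 lies furthest right on the level panel, the 3 called Cyp3a genes have the highest LFC values from 3.06 to 3.61, and the 37 members that were not called are grey.

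The colon expressed its P450 genes at very unequal levels. In germ-free mice 5 members had a mean above 100 RPKM, 12 lay between 10 and 100, 15 between 1 and 10, and 24 below 1, and in humanized mice these numbers were 4, 13, 15 and 24. Summed over the 56 members, the RPKM reached 1310 ± 75.5 without and 2519 ± 385 with a microbiota, and the highest germ-free sum, 1393, was below the lowest humanized sum, 2151. A single gene carried this difference. Without Cyp2c55 the sums were 1018 ± 68.2 and 1017 ± 230, from 925 to 1083 and from 807 to 1429, with overlapping groups. Humanized mice 2 and 3 lay below every germ-free mouse and humanized mouse 5 above. Cyp2c55 made up 20.6% to 24.6% of the summed RPKM in germ-free mice and 54.4% to 66.7% in humanized mice.

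**Figure D2:**
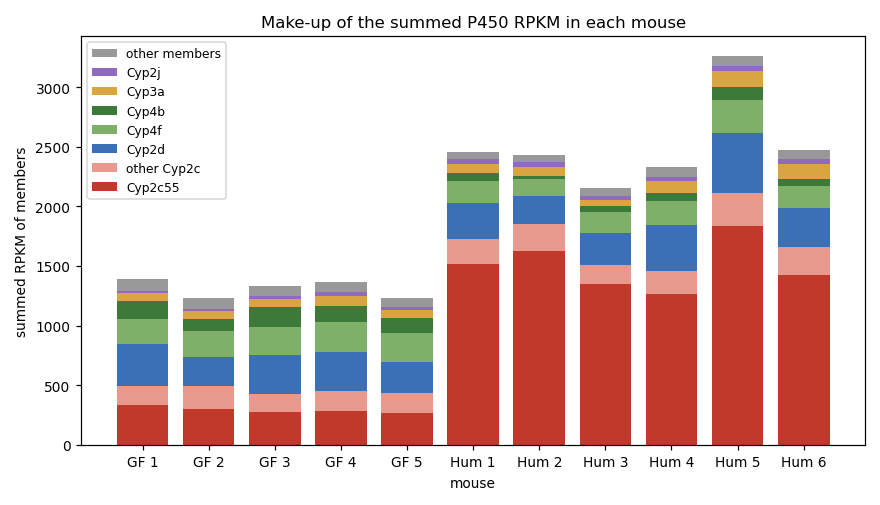
Summed RPKM of the 56 P450 members in each mouse, split by subfamily, with Cyp2c55 shown apart from the other Cyp2c genes. The Cyp2c55 share of the bar goes from 20.6–24.6% in the 5 germ-free mice to 54.4–66.7% in the 6 humanized mice. The rest of the bar is higher than in any germ-free mouse in humanized mouse 5, and lower in humanized mice 2 and 3.

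The Cyp2c subfamily, whose enzymes oxidize drugs and arachidonic acid, had 8 members. Of these 3 rose and 2 fell, or 62.5% called, beside 19.3% of all tested genes. Cyp2c55 (chr19:39007019-39042693), an enzyme known from the mouse colon that oxidizes arachidonic acid, was the most abundant member in both groups. Its RPKM was 333, 303, 276, 281 and 267 in germ-free mice 1 to 5, and from 1267 to 1835 with a median of 1470 in humanized mice. Every humanized mouse was thus more than 3 times above every germ-free mouse, with means of 292 ± 26.7 (n = 5) and 1502 ± 206 (n = 6). The LFC was 2.36 (SE 0.11, FDR = 7.75e-90), a 5.14-fold difference of the means, and Cyp2c55 stood at percentile 99.9 of all tested genes by level in humanized mice.

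Next to it lie Cyp2c65 (chr19:39061015-39093944) and Cyp2c66 (chr19:39113898-39187072), which rose far less. Cyp2c65 had 142, 159, 131, 146 and 145 RPKM in germ-free mice and 149 to 247 with a median of 191 in humanized mice. The groups overlapped, the means were 145 ± 9.97 and 192 ± 34.2, and the LFC was 0.41 (SE 0.11, FDR = 0.00396). Cyp2c66 had 7.46, 12.6, 11.5, 11.8 and 10.9 RPKM in germ-free mice and 11.4 to 25.7 with a median of 16.5 in humanized mice. These groups also overlapped, at the single lowest humanized mouse, and the LFC was 0.74 (SE 0.19, FDR = 0.00186). The call of Cyp2c65 was lost when any of 6 single mice was left out and that of Cyp2c66 when germ-free mouse 1 was left out, with the highest FDR at 0.0234 and 0.0102. Total-count normalisation ended both calls (FDR = 0.0933 for the LFC of Cyp2c65 and 0.0124 for the LFC of Cyp2c66), and epithelial scaling ended that of Cyp2c65 (FDR = 0.170).

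The 250 bases before the starts of these 3 genes are shown because the genes are neighbours and were upregulated together. They are from RefSeq on GRCm38.p6, all on the plus strand, at chr19:39006769-39007018 for Cyp2c55, chr19:39060756-39061005 for Cyp2c65 and chr19:39113648-39113897 for Cyp2c66, and capitals mark the letters TATAAA on either strand.
Cyp2c55: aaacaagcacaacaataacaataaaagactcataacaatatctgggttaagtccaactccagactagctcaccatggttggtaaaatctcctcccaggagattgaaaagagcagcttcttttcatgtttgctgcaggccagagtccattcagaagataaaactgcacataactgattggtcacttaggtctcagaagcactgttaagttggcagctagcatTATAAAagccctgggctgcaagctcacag
Cyp2c65: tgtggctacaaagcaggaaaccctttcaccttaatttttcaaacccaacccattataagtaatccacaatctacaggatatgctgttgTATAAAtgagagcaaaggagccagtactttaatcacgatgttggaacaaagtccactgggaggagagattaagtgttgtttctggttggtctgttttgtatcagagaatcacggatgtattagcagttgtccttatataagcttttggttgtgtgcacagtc
Cyp2c66: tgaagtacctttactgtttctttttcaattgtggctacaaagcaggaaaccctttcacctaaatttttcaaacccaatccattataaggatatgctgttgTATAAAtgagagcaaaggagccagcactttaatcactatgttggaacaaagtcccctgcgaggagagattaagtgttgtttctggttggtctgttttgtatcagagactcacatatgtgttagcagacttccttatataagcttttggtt
The match starts 29 bases before the start in Cyp2c55, and 162 and 150 bases before it in Cyp2c65 and Cyp2c66. Cyp2c65 and Cyp2c66 were 74.6% identical over this stretch in a global alignment that counts gaps, and Cyp2c55 and Cyp2c65 were 54.9% identical. The letters TATAAA occur in this window in 13.0% of 27025 genes. Of the 41 members that had an entry, 13 hold them.

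Further along the same chromosome, 2 of the other 5 Cyp2c members fell. Cyp2c68 (chr19:39688834-39741054) had 6.99, 10.8, 6.95, 10.5 and 9.16 RPKM in germ-free mice and 4.04 to 6.61 with a median of 4.72 in humanized mice. All humanized mice lay below all germ-free mice, and the LFC was −0.85 (SE 0.16, FDR = 2.96e-05). Cyp2c40 (chr19:39767071-39812814), an arachidonic acid hydroxylase known from the mouse intestine, had 0.428, 0.544, 0.680, 0.723 and 0.836 RPKM in germ-free mice and 0.251 to 0.413 with a median of 0.361 in humanized mice. These groups did not overlap either, and the LFC was −0.89 (SE 0.21, FDR = 0.00189). Its call was lost when germ-free mouse 4 or germ-free mouse 5 was left out, with an FDR of at most 0.0138. The other 3 Cyp2c members were not called. Cyp2c67 had an LFC of −0.93 with an FDR of 0.0412, and of −0.57 without germ-free mouse 2, and Cyp2c69 and Cyp2c44 had LFC values of 0.30 and −0.13.

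Reads of these neighbours may be hard to assign. Of all stretches of 101 bases, the read length, in the transcripts of Cyp2c40, 34.0% occur with the same letters in another gene, mostly Cyp2c69, and for Cyp2c68, Cyp2c67 and Cyp2c69 the shares were 19.6%, 23.3% and 35.1%. For Cyp2c55 no stretch was shared, and for Cyp2c65 and Cyp2c66 the shares were 7.71% and 7.25%. How far counts moved between these genes was not tested. Over all 56 members, 34 had under 5% of shared stretches, of which 22 had none, and the highest share was the 35.1% of Cyp2c69.

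**Figure D3:**
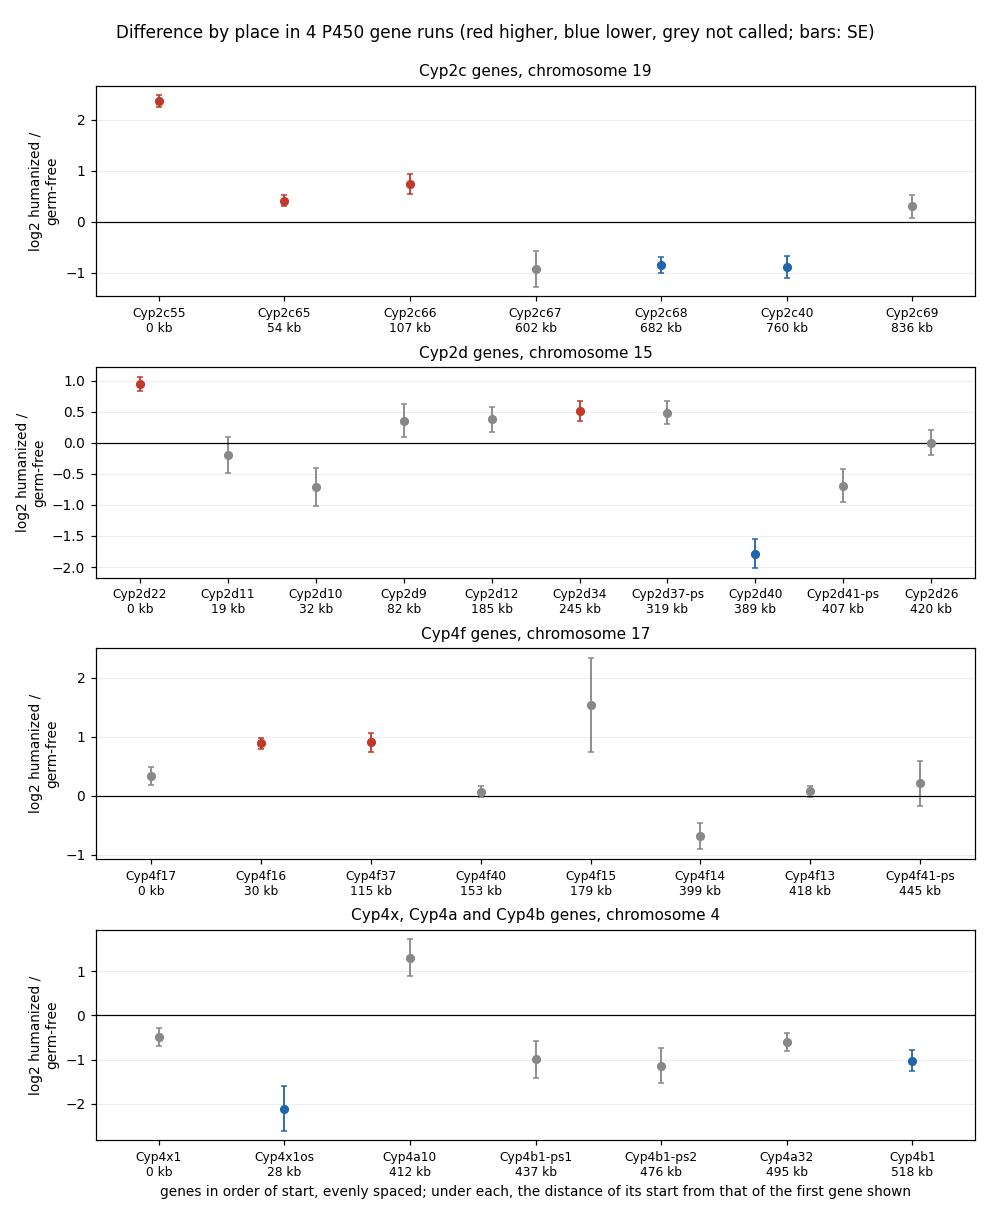
LFC with SE for the members of 4 runs of neighbouring P450 genes, in order of gene start, with the distance of each start from the first in kb. The first 3 Cyp2c genes are above 0 and called, and 2 of the 4 that lie from 602 to 836 kb further along are called below 0.

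The Cyp2d subfamily, which holds the mouse relatives of the human drug-metabolizing enzyme CYP2D6, had 10 members in a run of 420 kb on chromosome 15. Of these 2 rose and 1 fell, or 30% called, beside 19.3% of all tested genes. Cyp2d22 (chr15:82370528-82380260), the mouse gene most often set beside CYP2D6, had 5.92, 4.07, 5.48, 5.75 and 4.41 RPKM in germ-free mice and 8.66 to 12.2 with a median of 9.33 in humanized mice. The groups were apart, with means of 5.13 ± 0.832 and 9.88 ± 1.30 and an LFC of 0.95 (SE 0.12, FDR = 2.24e-10). Cyp2d34 (chr15:82615965-82620907), at a far higher level, had 106, 64.8, 102, 88.3 and 74.2 RPKM in germ-free mice and 99.3 to 173 with a median of 121 in humanized mice. Its groups overlapped and its LFC was 0.51 (SE 0.16, FDR = 0.00885), a call that was lost when any of 7 single mice was left out, with an FDR of up to 0.0408.

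Cyp2d40 (chr15:82759835-82764183) was the member of this run that fell. It had 1.07, 1.17, 0.795, 0.952 and 1.24 RPKM in germ-free mice and 0.182 to 0.399 with a median of 0.305 in humanized mice, from 54 to 101 and from 10 to 22 reads. The humanized mice were all below the germ-free mice, and the LFC was −1.78 (SE 0.23, FDR = 2.82e-10). None of its 101-base stretches is shared with another gene.

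Cyp2d26, the most abundant gene of the run, was not called. It had 132, 124, 137, 162 and 121 RPKM in germ-free mice and 77.0 to 205 with a median of 129 in humanized mice, so that the humanized mice enclosed the germ-free range. Its means were 135 ± 16.4 and 135 ± 45.2, and its LFC was −0.00275 (SE 0.20). Cyp2d10 had 57.8, 26.9, 43.0, 35.7 and 31.2 RPKM in germ-free mice and 10.9 to 43.7 with a median of 19.98 in humanized mice, and its LFC was −0.71 (SE 0.30, FDR = 0.0639). Without humanized mouse 5, the highest of its group, Cyp2d10 was called. The remaining 5 Cyp2d members had LFC values from −0.70 for the pseudogene Cyp2d41-ps to 0.49 for the pseudogene Cyp2d37-ps. Cyp2d41-ps was the only uncalled member whose groups did not overlap (FDR = 0.0450). It was called lower under total-count normalisation and epithelial scaling (LFC of Cyp2d41-ps −0.89 and −0.92, FDR = 0.00607 and 0.00873) and without humanized mice 5 and 6.

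The Cyp3a subfamily, related to the human enzyme CYP3A4 that oxidizes a large share of oral drugs, had 4 members. Of the 3 that lie close together on chromosome 5, Cyp3a44 and Cyp3a25 rose from a very low level and Cyp3a59 had 2 to 5 reads in each germ-free mouse, and the abundant Cyp3a13 was not called. Cyp3a44 (chr5:145773983-145805874) had 0.0404, 0.146, 0.148, 0.180 and 0.270 RPKM in germ-free mice and 1.21 to 2.79 with a median of 1.92 in humanized mice. The lowest humanized mouse was thus above the highest germ-free mouse, and the LFC was 3.61 (SE 0.40, FDR = 1.66e-15), the highest of all members. Germ-free mice had 5 to 37 reads of Cyp3a44, 4 of them at least 10, and humanized mice 92 to 237.

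Cyp3a25 (chr5:145977194-146009618) had 0.259, 0.394, 0.263, 0.431 and 0.110 RPKM in germ-free mice and 1.65 to 8.54 with a median of 2.19 in humanized mice. The groups did not overlap, and the LFC was 3.46 (SE 0.51, FDR = 4.66e-09). The highest value was that of humanized mouse 6, the next highest was 2.93, and without that mouse the humanized mean fell from 3.21 to 2.15 RPKM and the LFC was 2.88. Cyp3a59 (chr5:146079258-146113285) had 0.0317, 0.0191, 0.0171, 0.0401 and 0.0215 RPKM in germ-free mice on 2 to 5 reads each, and 0.0643 to 0.589 with a median of 0.173 in humanized mice. The LFC was 3.06 (SE 0.59). Cyp3a59 reached 10 reads in no germ-free mouse, so that its fold change rests on very few germ-free reads. Humanized mouse 6 was again far above the others, with 59 of the 122 humanized reads. Cyp3a59 shares 7.19% of its read-length stretches, mostly with Cyp3a25, which shares 6.60% of its own, mostly with Cyp3a59. In mouse order, the humanized mice had 17, 10, 20, 5, 11 and 59 reads of Cyp3a59. Their reads of Cyp3a25 were 224, 158, 230, 134, 176 and 891. Whether reads of Cyp3a59 came from Cyp3a25 was not tested, so the rise of Cyp3a59 may not be a separate observation.

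Cyp3a13 (chr5:137892932-137921619), the Cyp3a gene long known from mouse intestine, held nearly all of the RPKM of the subfamily. It had 70.2, 61.9, 72.0, 82.9 and 68.2 RPKM in germ-free mice and 51.8 to 126 with a median of 82.3 in humanized mice. The humanized mice lay on both sides of the germ-free mice, and the LFC was 0.30 (SE 0.20, FDR = 0.289). Summed over its members, Cyp3a reached 71.5 ± 7.70 RPKM in germ-free and 92.7 ± 29.6 RPKM in humanized colon, with overlapping groups.

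The 250 bases before the start of the 4 Cyp3a genes are shown because 3 of them are neighbours with the highest LFC values of all members, while Cyp3a13, which lies apart from them, was not called. They are from RefSeq on GRCm38.p6, at chr5:145805875-145806124 on the minus strand for Cyp3a44, chr5:146009619-146009868 on the minus strand for Cyp3a25, chr5:146079008-146079257 on the plus strand for Cyp3a59 and chr5:137921620-137921869 on the minus strand for Cyp3a13, and capitals mark the letters AGGTCA, a half-site that many nuclear receptors bind, on either strand.
Cyp3a44: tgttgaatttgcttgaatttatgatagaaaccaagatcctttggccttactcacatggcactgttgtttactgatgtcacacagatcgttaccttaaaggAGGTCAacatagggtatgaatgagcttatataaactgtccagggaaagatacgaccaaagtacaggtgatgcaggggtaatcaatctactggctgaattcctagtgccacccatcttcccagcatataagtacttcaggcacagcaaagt
Cyp3a25: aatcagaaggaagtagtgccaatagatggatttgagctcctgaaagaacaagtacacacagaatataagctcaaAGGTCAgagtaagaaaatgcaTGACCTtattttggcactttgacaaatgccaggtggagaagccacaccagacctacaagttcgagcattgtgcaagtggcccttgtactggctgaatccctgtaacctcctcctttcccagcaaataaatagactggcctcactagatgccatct
Cyp3a59: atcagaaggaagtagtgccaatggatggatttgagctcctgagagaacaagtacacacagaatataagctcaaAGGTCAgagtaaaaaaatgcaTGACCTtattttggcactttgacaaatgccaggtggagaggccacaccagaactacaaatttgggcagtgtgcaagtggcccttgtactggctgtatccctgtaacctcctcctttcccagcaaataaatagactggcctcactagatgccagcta
Cyp3a13: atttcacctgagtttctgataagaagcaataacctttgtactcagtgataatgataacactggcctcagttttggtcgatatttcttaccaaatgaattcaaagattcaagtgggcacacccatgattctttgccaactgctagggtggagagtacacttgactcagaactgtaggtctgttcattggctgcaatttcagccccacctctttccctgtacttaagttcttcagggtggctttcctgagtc
Cyp3a44 holds the letters once, from 150 bases before the start. Cyp3a25 holds them from 176 and 155 bases before the start and Cyp3a59 from 177 and 156, the second of each on the opposite strand, and the first overlaps the letters CAAAG. Cyp3a25 and Cyp3a59 were 94.8% identical over this stretch, while Cyp3a44 was 55.7% identical to Cyp3a25 and 57.2% to Cyp3a13. Cyp3a13 holds no match in this window.

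AGGTCA occurs in this window in 13.8% of the 27025 genes and in 5 of the 41 members, or 12.2%. Besides the 3 Cyp3a genes these were Cyp2f2 and Cyp2t4, neither of them called. In all, 6 motifs were searched on both strands. CAAAG was in 48.8% of genes and 32 of 41 members, GATAA in 23.0% and 15, TGAACT in 11.9% and 6, and TGACNNNGC in 10.2% and 1. These matches describe the letters of the window only.

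In the Cyp2j subfamily, whose enzymes turn arachidonic acid into epoxides, 1 of 3 members rose, or 33.3%, beside 19.3% of all tested genes. Cyp2j6 (chr4:96516138-96553661) had 18.2, 20.5, 20.9, 25.98 and 21.8 RPKM in germ-free mice and 28.9 to 46.1 with a median of 39.3 in humanized mice. All humanized mice were above all germ-free mice, with means of 21.5 ± 2.84 and 38.9 ± 6.25 and an LFC of 0.86 (SE 0.12, FDR = 1.42e-09). Cyp2j9 and Cyp2j13 stayed below 1 RPKM in every mouse and had LFC values of −0.10 and 0.65. Without germ-free mouse 3 the LFC of Cyp2j13 was 1.55 and it was called (FDR = 0.00271).

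Cyp2b10 (chr7:25897620-25926624), a well-known target of the xenobiotic receptor CAR, had few reads, and reached 10 of them in 5 germ-free and 2 humanized mice. It had 0.413, 0.317, 0.146, 0.212 and 0.169 RPKM in germ-free mice on 18 to 55 reads, and at most 0.129 with a median of 0.0620 in humanized mice, from 0 to 12 reads. The LFC was −1.88 (SE 0.54), and Cyp2b10 was no longer called when germ-free mouse 1 or germ-free mouse 2 was left out. Cyp2s1, an enzyme of epithelia outside the liver, had 28.6, 31.3, 26.01, 23.6 and 27.4 RPKM in germ-free mice and 19.3 to 36.0 with a median of 24.5 in humanized mice. Its groups overlapped, with humanized mice also below and above the germ-free range, and its LFC was −0.12 (SE 0.14, FDR = 0.599). Cyp2e1, Cyp2f2, Cyp2t4, Cyp2u1 and Cyp2w1 were not called, with LFC values from −1.09 for Cyp2e1 to −0.015 for Cyp2t4. Under total-count normalisation Cyp2f2 was called lower. The LFC of Cyp2e1 was −0.30 without germ-free mouse 4, the mouse with the highest adipocyte markers.

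In family 4, the Cyp4f enzymes hydroxylate leukotrienes and other fatty acids, and 2 of their 9 members rose. This is 22.2%, near the 19.3% of all tested genes. Cyp4f16 (chr17:32536558-32551798) had 12.6, 12.3, 13.2, 14.8 and 14.4 RPKM in germ-free mice and 20.3 to 30.8 with a median of 25.1 in humanized mice. The groups were well apart, with means of 13.4 ± 1.10 and 24.9 ± 3.48 and an LFC of 0.89 (SE 0.10, FDR = 7.08e-15). Its neighbour Cyp4f37 (chr17:32621319-32636184) had 0.762, 0.738, 0.880, 0.946 and 0.828 RPKM in germ-free mice and 1.12 to 1.93 with a median of 1.63 in humanized mice. These groups did not overlap either, and the LFC was 0.91 (SE 0.16, FDR = 7.37e-05). The genes share 5.84% and 7.26% of their 101-base stretches, mostly with each other.

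The abundant Cyp4f genes were not called. Cyp4f14, the mouse enzyme that inactivates leukotriene B4, had 132, 138, 154, 174 and 162 RPKM in germ-free mice and 58.7 to 172 with a median of 86.7 in humanized mice. Of the humanized mice 5 lay below every germ-free mouse and humanized mouse 5 at 172 lay near the highest of them, and the LFC was −0.69 (SE 0.22, FDR = 0.0121). Without humanized mouse 5 the LFC of Cyp4f14 was −0.95 and it was called. With all mice it was called lower by DESeq2 (FDR = 0.00815), with upper-quartile, total-count and epithelial scaling (FDR = 0.00438, 0.000249 and 0.000144) and with at least 10 reads required in every mouse (FDR = 0.00732). Cyp4f40 had 42.7, 45.9, 50.0, 44.3 and 48.0 RPKM in germ-free mice and 40.7 to 58.1 with a median of 46.7 in humanized mice, with an LFC of 0.07 (SE 0.09, FDR = 0.659). The remaining 5 Cyp4f members had LFC values from 0.074 for Cyp4f13 to 1.55 for Cyp4f15, whose value rests on humanized mouse 6 at 3.96 RPKM against at most 0.608 in every other mouse. Without that mouse the LFC of Cyp4f15 was −0.022.

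Cyp4b1 (chr4:115624725-115647723), which hydroxylates fatty acids and activates some foreign compounds, fell. It had 116, 78.3, 127, 105 and 105 RPKM in germ-free mice and 25.2 to 85.2 with a median of 51.6 in humanized mice. Humanized mouse 5 overlapped the germ-free mice and the other humanized mice lay below them, and the means were 106 ± 18.1 and 52.1 ± 20.04 with an LFC of −1.03 (SE 0.24, FDR = 0.000238). The pseudogenes Cyp4b1-ps1 and Cyp4b1-ps2 lie between Cyp4a10 and Cyp4a32 and share 19.5% and 15.5% of their 101-base stretches, mostly with Cyp4b1. They had LFC values of −0.999 and −1.14 that were not called. Under total-count normalisation and epithelial scaling Cyp4b1-ps2 was called lower. Cyp4a10, a fatty acid hydroxylase and known target of the receptor Ppara, had an LFC of 1.31 with an FDR of 0.0140. It was called higher when humanized mouse 2, 5 or 6 was left out, with an LFC of Cyp4a10 from 1.396 to 1.445. Cyp4a32 had an LFC of −0.60 with an FDR of 0.0366, and was called lower under total-count normalisation.

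The antisense gene Cyp4x1os (chr4:115133832-115137864) had the lowest LFC of all members, and reached 10 reads in 5 germ-free mice and 1 humanized mouse. It had 0.309, 0.229, 0.179, 0.384 and 0.307 RPKM in germ-free mice on 21 to 48 reads, and at most 0.116 with a median of 0.0693 in humanized mice, from 0 to 11 reads. The LFC was −2.11 (SE 0.50). Its exons overlap 450 bases of Cyp4x1 on the other strand, and since the library kit does not mark strand, reads there cannot be told apart. Cyp4x1 itself had an LFC of −0.49 with an FDR of 0.100, Cyp4v3 one of −0.095.

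Among genes of bile acid and oxysterol metabolism, 2 of 3 members fell, or 66.7%, beside 19.3% of all tested genes. Cyp27a1 (chr1:74713574-74737892), the mitochondrial sterol side-chain hydroxylase, had 27.4, 16.7, 20.4, 20.7 and 15.7 RPKM in germ-free mice and 8.46 to 14.4 with a median of 10.0 in humanized mice. Every humanized mouse was below every germ-free mouse, with means of 20.2 ± 4.61 and 10.6 ± 2.09 and an LFC of −0.93 (SE 0.16, FDR = 5.72e-07). Cyp7b1 (chr3:18071950-18243338), an oxysterol hydroxylase that acts after Cyp27a1, had 0.425, 0.573, 0.505, 1.01 and 0.396 RPKM in germ-free mice and 0.0583 to 0.312 with a median of 0.194 in humanized mice. The groups again did not overlap, and the LFC was −1.54 (SE 0.37, FDR = 0.000615). Cyp39a1, a hydroxylase of another oxysterol, had means of 9.93 ± 0.562 and 10.6 ± 1.402 RPKM and an LFC of 0.098.

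Members of vitamin D and retinoic acid metabolism were scarce and none was called. Cyp27b1, which activates vitamin D, had LFC 0.24, and Cyp2r1, which acts a step earlier, had LFC −0.39 with 3 germ-free mice at 0.0614 to 0.128 RPKM and the other 2 at 0.486 and 0.656. Cyp26b1, which degrades retinoic acid, had LFC −0.85 with an FDR of 0.158, and −0.34 without germ-free mouse 1. Cyp20a1, an orphan enzyme with no settled substrate, had the steadiest level, with means of 9.41 ± 0.329 and 8.78 ± 0.549 RPKM and an LFC of −0.10. Over all members the median coefficient of variation between mice was 20.5% in germ-free and 32.2% in humanized mice, beside 10.4% and 16.5% over all tested genes.

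**Figure D4:**
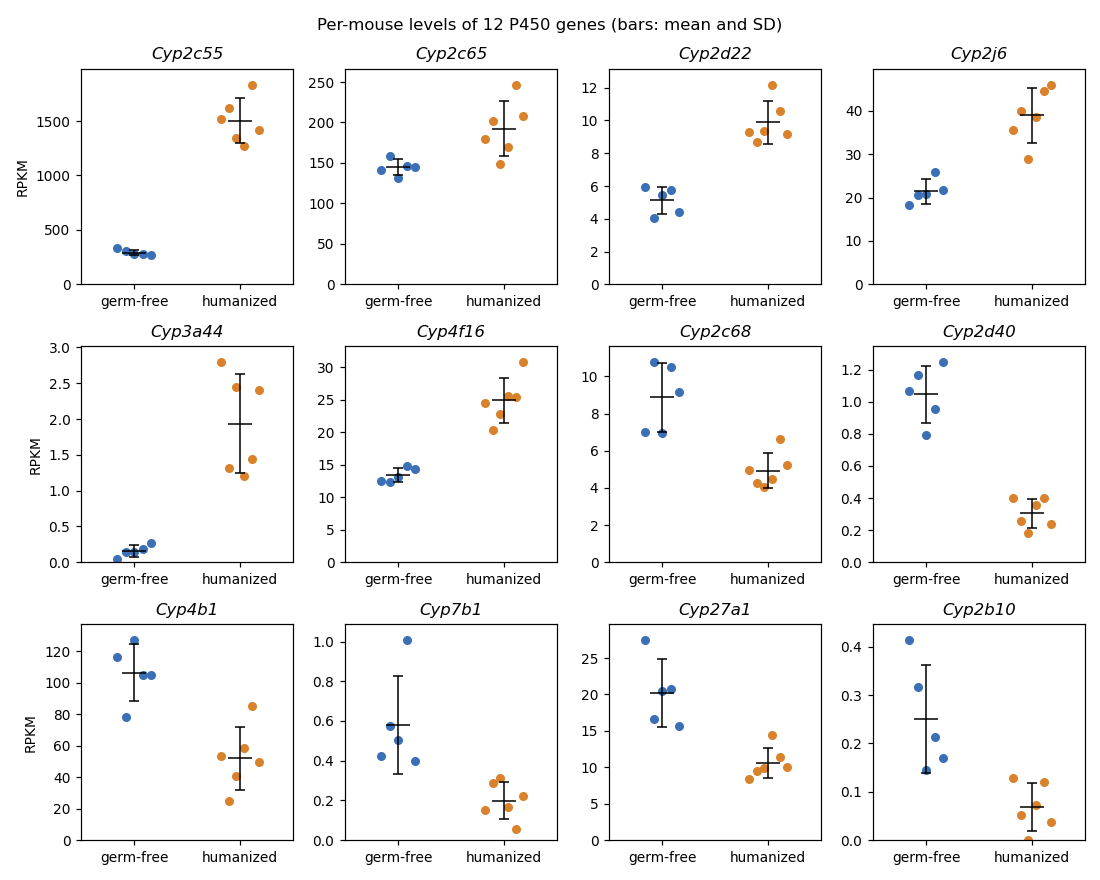
RPKM of 12 called P450 genes in each of 5 germ-free and 6 humanized mice (points), with mean and SD (black), each on its own axis from 0. The points of the groups are apart in every panel except those of Cyp2c65 and Cyp4b1.

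Genes that serve the P450 enzymes were compared as lists. Of 11 tested redox partner genes, 3 rose and none fell. This is 27.3%, beside 19.3% of all tested genes, and the median LFC was 0.14 beside 0.0084 over all genes. Por, the electron donor of P450 enzymes in the endoplasmic reticulum, had 31.6, 34.2, 31.8, 29.6 and 31.6 RPKM in germ-free mice and 39.5 to 53.1 with a median of 44.1 in humanized mice. The groups did not overlap, and the LFC was 0.51 (SE 0.08, FDR = 9.00e-07). The mitochondrial partners Fdx1 and Fdxr rose with LFC values of 0.35 and 0.52. Fdx1 was not called by the quasi-likelihood test (FDR = 0.0125), and none of the 3 was called when the libraries were scaled to 10 epithelial marker genes instead of TMM.

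Of 18 tested regulators of P450 genes, 4 rose and 1 fell. This is 27.8%, beside 19.3% of all tested genes. The quasi-likelihood test called 4, without Nr1i2 (FDR = 0.0210), and 2 were called with epithelial scaling. The xenobiotic receptors Nr1i2 (PXR) and Nr1i3 (CAR) had LFC values of 0.36 and 0.34, Hnf4a, a regulator of epithelial and liver genes, 0.43, and Pparg 0.75. The oxysterol receptor Nr1h3 fell with an LFC of −0.55. Ppara, Nr1h4 and Vdr, the receptors for fatty acids, bile acids and vitamin D, were not called. Of 4 epoxide hydrolases, which open the epoxides that Cyp2c and Cyp2j enzymes make, 2 fell, or 50%, beside 19.3% of all tested genes. The LFC was −0.80 for Ephx2 and −0.47 for Ephx1. Under other names, the P450 gene Ptgis, prostacyclin synthase, fell with an LFC of −1.74, and Tbxas1, thromboxane synthase, was not called.

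The tissue samples differed in more than P450 genes. All 8 smooth muscle markers were lower in humanized mice, with a summed RPKM of 280 to 856 in germ-free and 38.0 to 298 in humanized mice, as were 5 of 6 fibroblast markers (209 to 357 and 24.1 to 177) and all 4 enteric neuron markers (6.98 to 8.33 and 0.514 to 2.93). Of 6 endothelium markers none was called, although all 6 LFC values were below 0, from −0.61 to −1.28, the groups did not overlap for 4 of them, and the summed RPKM was apart (16.03 to 18.8 and 2.05 to 14.5). Of 5 macrophage markers 1 was lower, and of 4 B and plasma cell markers 2 were higher (1.22 to 3.57 and 4.58 to 32.4). Of 10 epithelium markers 2 were higher, with summed RPKM of 3526 to 4755 and 3941 to 5291. Among all these called markers, the quasi-likelihood test did not call Des, Actg2, Lmod1, Synpo2, Dcn, Col3a1, Tubb3, Mrc1 and Cd79a (FDR = 0.0134 to 0.0318). The part of these cell types in the lower level of any downregulated member, or of Ephx1, Ephx2, Ptgis and Nr1h3, was not tested. In whole tissue fewer cells of a type and less RNA per cell cannot be told apart. Of 6 hepatocyte markers only Apoh was tested, Alb had a mean of 0.0151 and 0.0354 RPKM, and Fgb was at 0 in all mice. Neither of the 2 tested adipocyte markers was called. Germ-free mouse 4 stood apart in this list, with a summed RPKM of 30.9 against at most 9.82 in every other mouse, and held 333 reads of Adipoq against at most 40. It also had the highest Cyp2e1, at 2.75 RPKM with 1.076 next, and the highest Cyp7b1, at 1.01 RPKM with 0.573 next. Without this mouse the LFC of Cyp2e1 was −0.30, and the LFC of Cyp7b1 was −1.25 and still called (FDR = 0.00495). The part of fat tissue in these values was not tested. The posterior colon marker Hoxa13 was present at 0.548 and 0.178 RPKM without a call, and the means of Hoxb13 and Hoxd13 were at most 0.0254 RPKM.

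Humanized mouse 6 stood apart in genes of the small intestine. The genes Fabp6, Mttp, Enpep and Apoa4, chosen after their values were seen, summed to 184 RPKM in this mouse and to between 10.7 and 55.01 in the other 10. Fabp6, the ileal bile acid binding protein, had 132 RPKM there and at most 35.3 elsewhere. The same mouse held the highest values of Cyp3a25, Cyp3a59 and Cyp4f15, and the part of tissue position in these was not tested. Humanized mouse 5 had the lowest summed markers of smooth muscle, fibroblasts, endothelium, macrophages and enteric neurons. Within its group it had the highest values of Cyp2c55, Cyp2d34, Cyp2d10, Cyp4b1 and Cyp4f14, and the lowest of Cyp7b1, Cyp26b1 and Ptgis. Without both mice 20 members were called, 8 higher and 12 lower, beside 20.1% of all tested genes, and 15 of the 19 were among them.

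**Figure D5:**
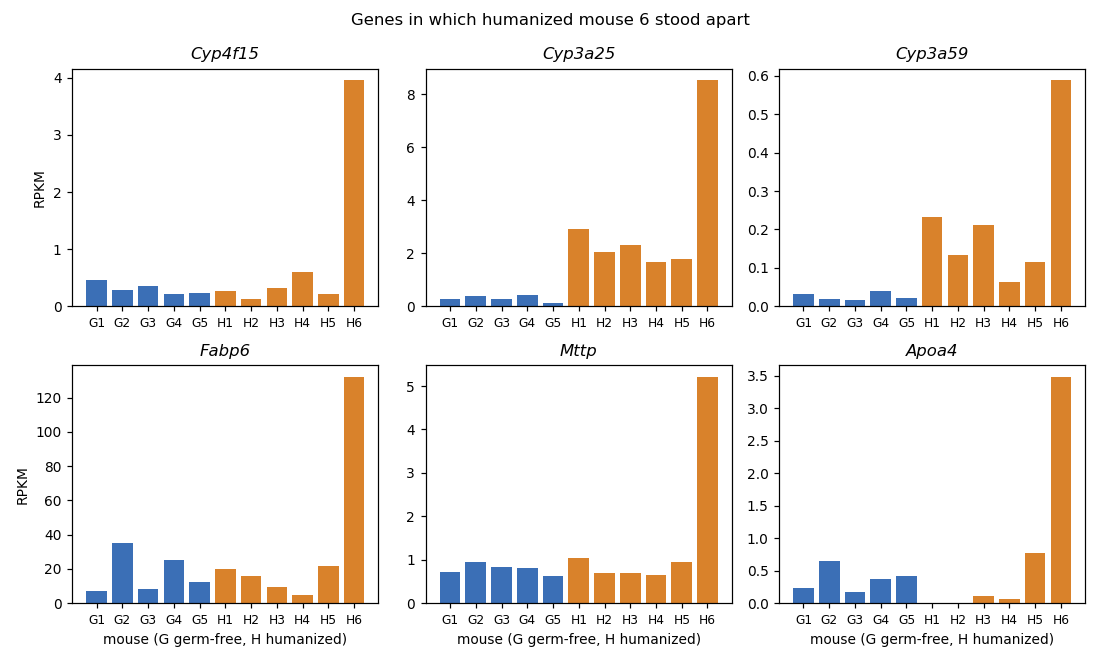
RPKM in each mouse of 3 P450 members (top) and of 3 small intestine genes (bottom), each on its own axis from 0. Humanized mouse 6 is the highest bar in every panel, and for Cyp3a25 and Cyp3a59 the other 5 humanized mice are still above the 5 germ-free mice.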

How the data were processed

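Colonic RNA of 5 germ-free and 6 humanized mice was sequenced by the authors as 101 bp paired-end reads from a TruSeq RNA v2 kit. Per the submitters' processing notes and the methods, the tools were bcl2fastq 2.17.1.14, TopHat2 2.1.0, Bowtie2 2.2.3 and featureCounts of Subread 1.4.6-p5, on build mm10. The authors deposited raw read counts of 43346 genes with a length for each gene. The treatment of reads that map to several genes is not given in the sources used here. No sequencing batch is named, so no values within batches could be given, and mice of a group were separate animals whose counts differed by far more than sampling noise (mean chi-square per gene of 21.2 to 132).

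The comparison followed the study's methods in R 4.3.3 with edgeR 4.0.16. Genes were filtered with filterByExpr (minimum count 10, minimum total count 15), libraries were normalised with TMM, and the exact test was run between the groups at an FDR below 0.01 over all 19863 genes. Each SE was taken from a quasi-likelihood fit of edgeR. RPKM used TMM-normalised libraries and the deposited lengths. Members, roles and gene lists were chosen with earlier results of these data known. Germ-free values are given mouse by mouse, and humanized values by their range or maximum and median, for each called member and for the 6 uncalled members with the highest mean RPKM, and Por is named in any case. Promoters were read from a RefSeq table (GRCm38.p6), which held 41 of 56 members, with the first entry used for genes listed more than once. Shared stretches of 101 bases were counted in GENCODE M21 transcripts, which need not be the annotation used for counting. DESeq2 1.42.0 and the other alternatives are given with their effect in the closing part. The tests were checked on simulated counts. Intervals between mice cover the spread of these animals only.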

Additional observations from a re-analysis of the deposited data

Results flagged for a closer look

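In groups of 5 or 6 mice, a single mouse was set off from the rest of its group by a gap that was large for the range of that group (Dixon's criterion) in 8 of 112 groups examined, where chance gives about 1 in 20. Humanized mouse 6 accounted for 3 of them, with Cyp3a25 at 8.54 RPKM (next 2.93), Cyp3a59 at 0.589 RPKM (next 0.232) and Cyp4f15 at 3.96 RPKM (next 0.608). Humanized mouse 5 had Cyp4f14 at 172 RPKM (next 92.7). Among germ-free mice, mouse 1 had Cyp26b1 at 1.87 RPKM (next 0.744) and the pseudogene Cyp2d41-ps at 1.22 RPKM (next 0.938), mouse 2 had Cyp2c67 at 1.49 RPKM (next 0.721), and mouse 3 had Cyp2j13 at 0.120 RPKM (next 0.0336). Of these genes, Cyp3a25 and Cyp3a59 were called. Cyp3a25 and Cyp3a59 share part of their sequence, and whether their flags are separate was not tested. Cyp2j13 was called without germ-free mouse 3, and Cyp4f14 without humanized mouse 5.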

How the results depend on the processing

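No LFC changed its sign for a called member under any alternative. Cyp2c55, Cyp2d22, Cyp2d40, Cyp2j6, Cyp3a25, Cyp3a44 and Cyp4f16 were called in every alternative in which they were tested at an FDR below 0.01 without a limit on the LFC. With at least 10 reads in every mouse 47 members were tested and 14 called, beside 19.1% of all tested genes. Cyp3a44 was not among those tested. RLE normalisation called the same 19 members, beside 19.1% of all tested genes. Upper-quartile normalisation also called 19, without Cyp2d34 and with Cyp4f14, 10 higher and 9 lower, beside 18.8% of all tested genes. No filter gave 18, beside 11.6% of 30533 genes. Leaving out 1 mouse at a time gave 16 to 22 called members, 9 to 11 higher and 7 to 12 lower, beside 14.4% to 22.4% of all tested genes, and the 22 came without humanized mouse 5, which added Cyp2d10, Cyp4a10, Cyp4a32, Cyp4b1-ps2 and Cyp4f14. Cyp2d34 was called in 6 of the 21 planned refits, and was not called without humanized mice 5 and 6, a choice made after seeing the data. With DESeq2, 20 members were called and 1 had no adjusted p. At an FDR below 0.05, 26 members were called, 12 higher and 14 lower, beside 28.6% of all tested genes. At an FDR below 0.01 with an absolute LFC above 1, 9 were called, 4 higher and 5 lower, beside 8.45%. These 9 include Cyp3a59, Cyp2b10 and Cyp4x1os, which met the read floor through the group where they were high.

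Total-count normalisation moved the median LFC of all genes to −0.18 and gave 13 lower members, with 17.6% of all calls higher instead of 47.8%. Scaling to epithelial markers moved it to −0.17, with 22.1% of calls higher, and left 0 of the redox partner genes and 2 of the regulator genes called. The cause of these shifts was not tested.

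The labels do not say that mouse numbers pair animals. Same-numbered mice had correlations of −0.13 to 0.13, and 2 of 5 germ-free mice correlated best with their own number. With so few mice, these values cannot show whether animals were paired. In the quasi-likelihood test on mice 1 to 5, a replicate block left 7 called members, 6 higher and 1 lower, beside 5.08% of all tested genes, and without the block 12, of which 4 were lower, beside 10.5%. Cyp3a59 left the low-expression filter in 5 of the 6 fits without 1 humanized mouse.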

Other observations

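Of the 56 P450 genes below the read floor, 20 had no read in any mouse and 28 had at most 9 reads in any mouse. The other 8 reached 10 reads in 1 to 4 mice. Cyp3a11, the main Cyp3a gene of mouse liver, had 61 of its 93 reads in humanized mouse 6 and 12 in germ-free mouse 2. Cyp2c70, which hydroxylates bile acids in mouse liver, had 43, 34 and 30 reads in humanized mice 5, 2 and 3 and at most 12 in any other mouse. The pseudogene Cyp2c53-ps had 44 of its 55 reads in humanized mouse 2. Cyp8b1, the enzyme that sets the cholic acid share of bile acids, had 18 reads in germ-free mouse 1 and 16 in humanized mouse 6. Steroid hormone genes were near 0 in both groups, with at most 10 reads of Cyp11a1 and at most 15 of the pseudogene Cyp21a2-ps in any mouse. Just inside the floor, Cyp3a59 reached 10 reads in 5 mice, and just outside it Cyp2c70 reached them in 4 mice.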
